A study of Homo sapiens with 6 samples.

Results

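The cytosolic ribosomal protein genes were described in HCT116, a widely used human colon carcinoma cell line with poor differentiation, whose cells carried either an shRNA against TRIM21 (shTRIM21) or a scrambled shRNA (shControl). TRIM21 is a cytosolic Fc receptor and E3 ubiquitin ligase. Members were the rows whose symbol is RPL or RPS followed by a number, with or without a final A or X, together with RPLP0, RPLP1, RPLP2 and RPSA. The rule found 77 of the 28278 rows, 46 of the large and 31 of the small ribosomal subunit, without using any measured value. The genotype is labelled TRIM21 knockdown in shTRIM21 and WT in shControl. Both groups held 3 libraries of rRNA-depleted total RNA and shared lentiviral delivery and selection with 5 µg/ml puromycin begun 36 h after infection, and both are labelled day 21. The shTRIM21 cells are described as stably expressing the shRNA, and 1 shRNA against TRIM21 is named. Replicates are labelled biological, with no statement on whether cultures were separate, so each p-value reflects the spread among these 6 libraries and that spread could be technical.

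The ribosome is built from ribosomal RNA and a fixed set of proteins. The small subunit reads the messenger RNA and the large subunit joins the amino acids. Ribosomal proteins are made in the cytosol, carried into the nucleus by importins and assembled with rRNA in the nucleolus. Their mRNAs typically begin with a 5′ terminal oligopyrimidine (TOP) tract, a cytosine followed by an unbroken run of pyrimidines, through which mTORC1 and LARP1 control their translation and stability. Many of their introns hold small nucleolar RNAs (snoRNAs), which guide modification of rRNA.

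Library totals ran from 22656160 to 27123657 counts. TRIM21 had 225, 182 and 173 counts in shTRIM21 replicates 1 to 3, against 288, 286 and 443 in shControl. Its log2 fold change was -0.73 (SE 0.173, edgeR adjusted p = 0.0124), which leaves a fold of 0.603. Of 12 epithelial colon markers, 5 averaged a CPM of at least 5, CPM being the count relative to the scaled library size, and CDX1 and LGALS4 were at 0. Of 11 markers of fibroblasts, leukocytes or, for HBB, red cells, 0 reached that level. Their summed level was 0.425 to 0.539 CPM in shTRIM21 and 0.573 to 0.712 CPM in shControl, and HBB, at a mean of 0.399 CPM over the 6 libraries, made up most of it. The summed epithelial markers stood at 172 to 174 CPM in shTRIM21 and 185 to 198 CPM in shControl. The part of these markers in the results was not tested. In bulk RNA, fewer cells of a kind and less RNA per cell cannot be told apart.

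As a group, the ribosomal protein genes were slightly higher in shTRIM21 than in shControl. They took 5.08%, 4.91% and 4.95% of the counts outside rRNA genes in shTRIM21 replicates 1 to 3, against 4.49%, 4.53% and 4.59% in shControl. The groups did not overlap, and the means were 4.98% ± 0.0921 in shTRIM21 and 4.53% ± 0.0514 in shControl (SD, n = 3 each), a ratio of 1.10. As a share of all counts the groups overlapped, with 4.34% ± 0.120 in shTRIM21 and 4.01% ± 0.239 in shControl (SD, n = 3 each). Genes of rRNA, whose remnants differed widely between libraries, took 12.8% ± 2.91 of the counts in shTRIM21 and 11.5% ± 4.26 in shControl (SD, n = 3 each).

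**Figure D1:**
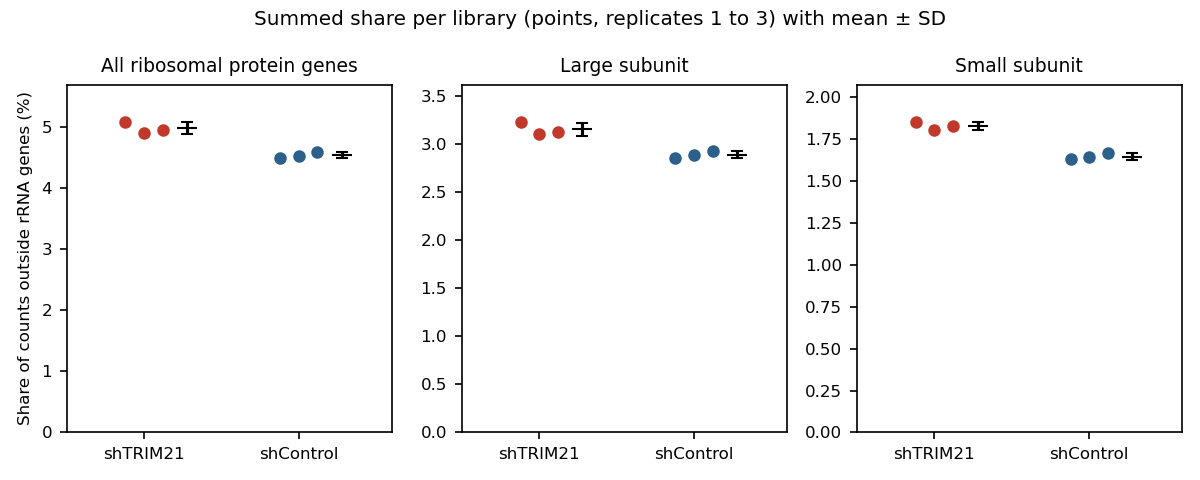
Summed counts of all ribosomal protein genes, of the large subunit and of the small subunit, each as a percentage of the counts outside rRNA genes (y axis, from 0), in 3 shTRIM21 and 3 shControl libraries. Points are libraries and bars are mean ± SD, and in each panel every shTRIM21 point lies above every shControl point, at 4.91% to 5.08% against 4.49% to 4.59% for all members.

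The sums of both subunits were higher in shTRIM21. Large-subunit genes held 3.15% ± 0.0682 of the counts outside rRNA genes in shTRIM21 and 2.89% ± 0.0332 in shControl, a ratio of 1.09. Small-subunit genes held 1.83% ± 0.0251 in shTRIM21 and 1.65% ± 0.0182 in shControl, a ratio of 1.11 (SD, n = 3 each). The count of large-subunit genes over that of small-subunit genes was 1.74, 1.72 and 1.71 in shTRIM21, against 1.75, 1.76 and 1.75 in shControl. Every ratio in shTRIM21 was slightly below every ratio in shControl. No p is given for sums over chosen members.

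Gene by gene, 5 of the 76 members tested rose and 0 fell (edgeR quasi-likelihood test, Benjamini-Hochberg adjusted p under 0.05 over 14002 genes), and 71 did not pass, with adjusted p from 0.0723 to 0.931. The 5 are 6.58% of the members, against 4.43% of all tested genes called higher and 4.66% called lower. At an unadjusted p under 0.05, 28 members (36.8%) were higher and 0 lower, against 11.5% of all genes higher and 1581 of 14002 lower. DESeq2 and limma-voom also called 0 members lower, where they called 6.24% and 4.49% of all genes lower. The fitted log2 fold change was positive for 74 of 76 members, against 51.8% of all tested genes, and for 52 of 76 once GC content and length were fitted as an offset. The median log2 fold change over members was 0.11, a fold of 1.08, against 0.01 over all genes. Without RPL21, the SE of a member's log2 fold change ran from 0.0575 to 0.0915. The members share libraries and scaling, so these counts describe the list and are not independent evidence for each gene.

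**Figure D2:**
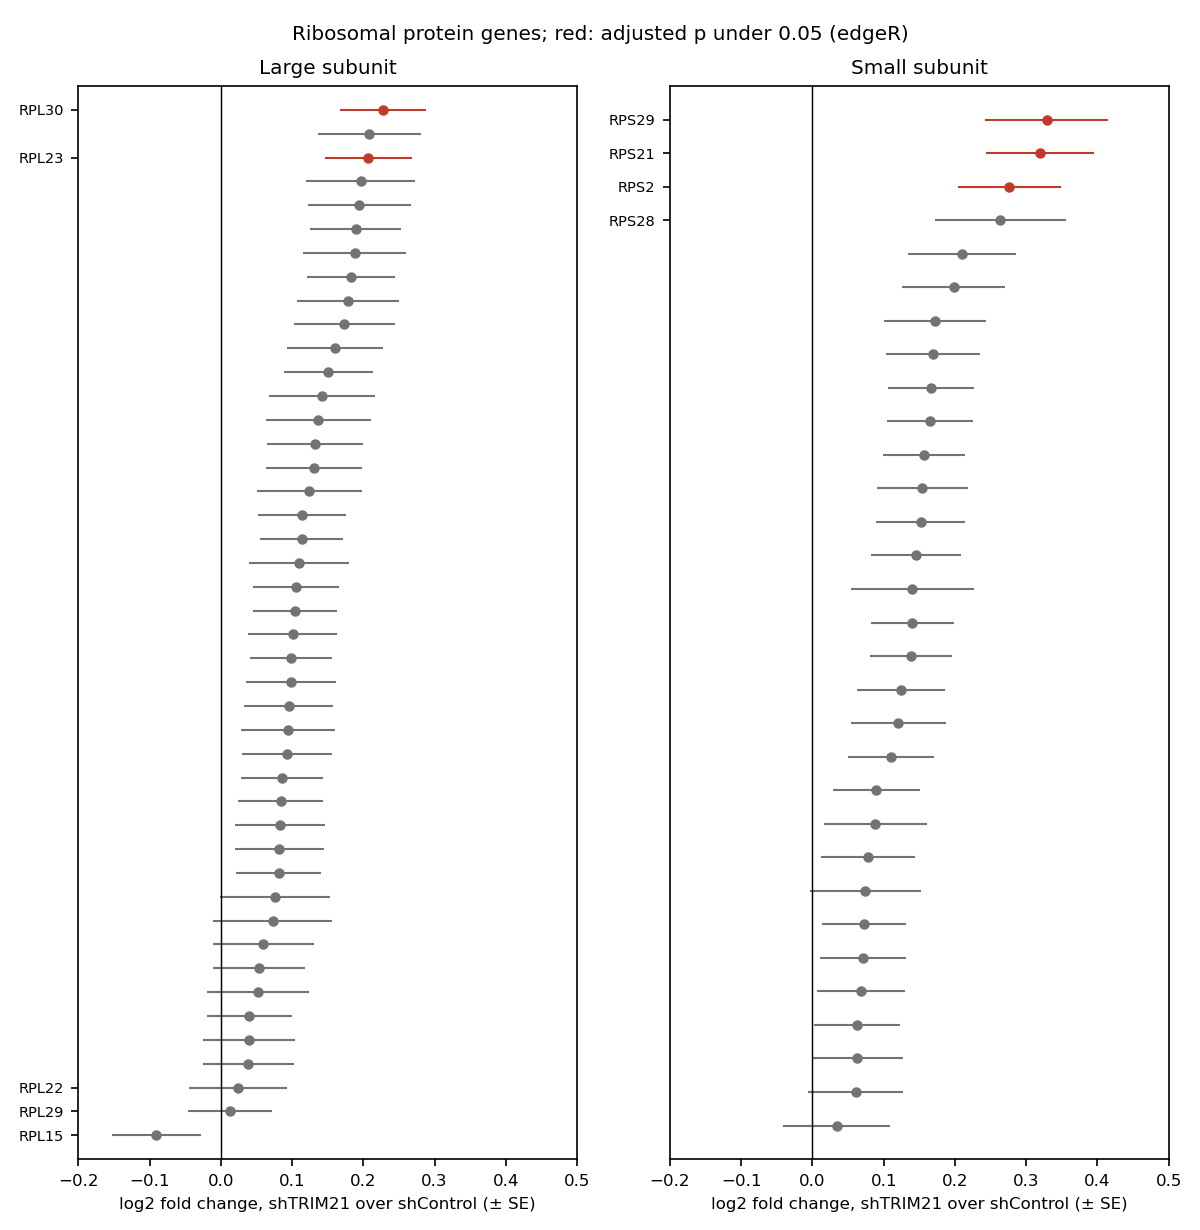
Log2 fold change, shTRIM21 over shControl, with its standard error (x axis) for each tested ribosomal protein gene without RPL21, ordered by value within the large (left) and small (right) subunit. The 5 genes that passed the threshold are in red, and these and a few at the extremes are labelled. Of the 75 genes drawn, RPL15 alone lies below 0 (over all 76 tested, 74 are positive, and 52 with GC content and length as an offset).

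The members that rose were 3 proteins of the small subunit and 2 of the large. RPS29, a zinc-binding protein of the small subunit, lies on chromosome 14 at 49570984 to 49599164 (GRCh38, minus strand). It had 51.7, 48.9 and 47.8 CPM in shTRIM21, against 41.1, 37.1 and 39.9 CPM in shControl. Every shTRIM21 library was above every shControl library, at a log2 fold change of 0.33 (SE 0.0859, edgeR adjusted p = 0.0217). RPS21, a small-subunit protein encoded on chromosome 20 at 62387116 to 62388520 (plus strand), had 88.5, 78.8 and 88.5 CPM in shTRIM21, against 71.0, 69.3 and 64.8 CPM in shControl. Its log2 fold change was 0.32 (SE 0.0762, edgeR adjusted p = 0.0128), and the lowest shTRIM21 library was still above the highest shControl library. RPS2, which lines the mRNA entry channel of the small subunit, lies on chromosome 16 at 1962052 to 1964860 (minus strand). It had 942, 829 and 856 CPM in shTRIM21, against 726, 783 and 661 CPM in shControl. The spread within each group was wider here, and the log2 fold change was 0.28 (SE 0.0724, edgeR adjusted p = 0.0218).

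RPL30, a large-subunit protein that also binds selenocysteine insertion elements, had 523, 526 and 517 CPM in shTRIM21, against 452, 421 and 465 CPM in shControl. Its shTRIM21 libraries were nearly identical, and the log2 fold change was 0.23 (SE 0.0600, edgeR adjusted p = 0.0225). RPL23, a large-subunit protein at the interface between the subunits that also binds MDM2, is encoded on chromosome 17 at 38847865 to 38853843 (minus strand). It had 574, 546 and 560 CPM in shTRIM21, against 466, 475 and 514 CPM in shControl. Its shControl replicate 3 stood nearest to the shTRIM21 libraries, and the log2 fold change was 0.21 (SE 0.0609, edgeR adjusted p = 0.0397). As linear folds, the rises ran from 1.15 for RPL23 to 1.26 for RPS29.

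The calls changed with single libraries left out. Over these fits the log2 fold change ran from 0.29 to 0.36 for RPS29, 0.29 to 0.37 for RPS21, 0.22 to 0.34 for RPS2, 0.19 to 0.26 for RPL30 and 0.18 to 0.26 for RPL23. With shTRIM21 replicate 1 or replicate 3 left out, 0 of the 5 passed, where 2.56% and 2.07% of all genes were called higher. With shControl replicate 1, shTRIM21 replicate 2 or shControl replicate 2 left out, 2 passed each time, where 2.28%, 2.21% and 2.68% of all genes were called higher. Without shControl replicate 3, all 5 passed and 27 members were higher, against 6.55% of all genes. Without replicate 3 of both groups 18 members were higher, against 5.36% of all genes. An offset for the GC content and length of the transcript kept all 5, at log2 fold changes of 0.25 for RPS29, 0.21 for RPS21, 0.14 for RPS2, 0.16 for RPL30 and 0.13 for RPL23. An offset for the coding sequence, added after the data were seen, kept RPS2, RPL30 and RPL23, while RPS29 stood at 0.16 (edgeR adjusted p = 0.167) and RPS21 at 0.16 (edgeR adjusted p = 0.134). With DESeq2 size factors in edgeR, RPL23 stood at 0.20 (edgeR adjusted p = 0.0513).

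**Figure D3:**
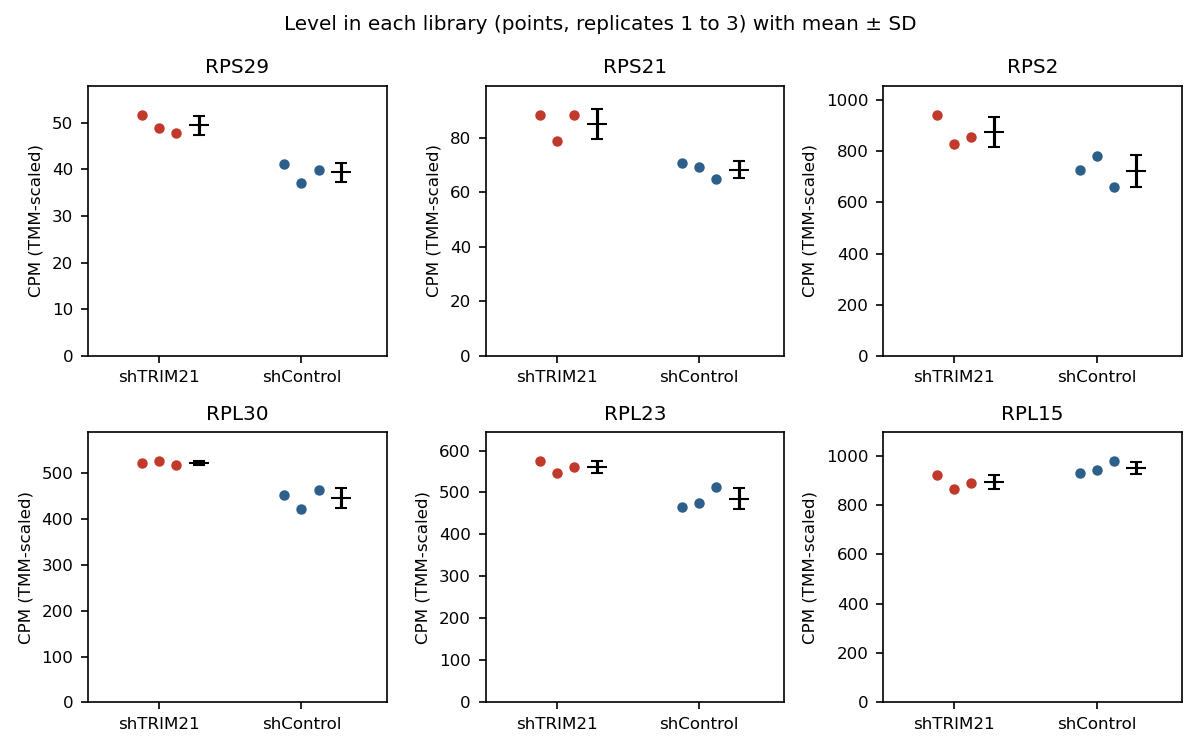
CPM scaled by TMM (y axis, from 0) in each of 3 shTRIM21 and 3 shControl libraries for the 5 ribosomal protein genes that passed the threshold and for RPL15. Points are libraries and bars are mean ± SD, and the shTRIM21 points lie above the shControl points in 5 panels, such as RPS29 at 47.8 to 51.7 against 37.1 to 41.1 CPM, and below them for RPL15.

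A further 8 members had an adjusted p between 0.05 and 0.1. RPS6, the small-subunit protein phosphorylated by S6 kinases downstream of mTORC1, had 1296, 1423 and 1367 CPM in shTRIM21, against 1121, 1159 and 1280 CPM in shControl (log2 fold change 0.20, edgeR adjusted p = 0.0970). RPL12, at the base of the stalk that recruits elongation factors, stood at 0.19 (edgeR adjusted p = 0.0723). RPL13A, also known for binding certain inflammatory mRNAs when it is outside the ribosome, stood at 0.18 (edgeR adjusted p = 0.0743). The large-subunit protein RPL36A was at 0.21 (edgeR adjusted p = 0.0821), and the small-subunit proteins RPS28 and RPS24 were at 0.26 (edgeR adjusted p = 0.0813) and 0.21 (edgeR adjusted p = 0.0925). In 7 of these 8 genes every shTRIM21 library was above every shControl library, against 14.1% of all tested genes. The 8 were picked by p-value in the same libraries, so this count adds no support. The exception was RPL36A, where the lowest shTRIM21 value was 160.7 CPM and the highest shControl value 161.1 CPM.

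In all, 37 of 76 members (48.7%) had every shTRIM21 library above every shControl library, against 14.1% of all tested genes. In the large subunit there were 19 of 45. Beside RPL30, RPL23, RPL12 and RPL13A these were RPL36 at a log2 fold change of 0.20, RPLP0 at 0.19, RPL8 at 0.18, RPL4 at 0.17, RPL19 at 0.15, RPLP2 at 0.14 and RPL3 at 0.13. They also took in RPL10A, RPL35 and RPL27 at 0.11, RPL23A and RPL27A at 0.10, RPL37 at 0.09, and RPL41 and RPL24 at 0.08. RPLP0 and RPLP2 form the stalk together with RPLP1, whose groups overlapped at 0.13. In the small subunit there were 18 of 31. Beside RPS29, RPS21, RPS2, RPS28, RPS24 and RPS6 these included RPS9 at 0.17, RPS27 at 0.16, RPSA, RPS10 and RPS16 at 0.15, RPS12 and RPS3 at 0.14, RPS4X at 0.12, RPS14 at 0.11 and RPS18 at 0.06. RPSA also serves as a laminin receptor, and RPS3 as a DNA repair factor.

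The lowest fold changes belonged to RPL22 at 0.02, RPL29 at 0.01, RPL21 at -0.09 and RPL15 at -0.09. RPL15, a core protein of the large subunit encoded on chromosome 3 at 23916545 to 23924374 (plus strand), was the member whose libraries lay apart in the other direction. It had 922, 867 and 891 CPM in shTRIM21, against 932, 945 and 977 CPM in shControl. All 3 shTRIM21 values were below all 3 shControl values, as in 13.9% of all tested genes, but the difference did not pass (log2 fold change -0.09, SE 0.0620, edgeR adjusted p = 0.417). With the GC and length offset it stood at -0.18 (edgeR adjusted p = 0.00408), and with the coding offset at -0.15 (edgeR adjusted p = 0.0170). RPL22 has been studied for roles in lymphocyte development outside the ribosome. RPL5 and RPL11, which bind MDM2 with 5S rRNA when ribosome assembly fails, stood at 0.11 and 0.09, with overlapping groups.

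Between the subunits, the fold changes differed little. The median log2 fold change was 0.10 over 45 large-subunit genes and 0.14 over 31 small-subunit genes, a difference of -0.04. Of the large-subunit genes 43 were positive and 2 rose, and of the small-subunit genes 31 were positive and 3 rose. The difference between subunit medians ran from -0.06 to -0.01 with single libraries left out, and it was -0.00 with the GC and length offset. In single libraries, the large minus small difference of the median log2 deviations had a pooled SD within groups of 0.02. That SD is the spread of single libraries and not an SE of the difference between groups.

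The GC content of the transcripts moved with the members' values within the groups. The plot by library sets each member's deviation from its mean over the 6 libraries against the GC content of its transcript, for 75 members without RPL21. Pearson's r was 0.57, -0.53 and -0.25 in shTRIM21 replicates 1 to 3 and 0.60, 0.65 and -0.72 in shControl. These are descriptions across genes of the same library. Over a wider set of genes with a GC value, r was 0.56, -0.10 and 0.01 in shTRIM21 replicates 1 to 3. In shControl it was 0.07, 0.17 and -0.61. Replicate 3 of shControl was thus the most negative here as over the members, and replicate 1 of shTRIM21 was the most positive. The r of shControl replicates 1 and 2 was far smaller than over the members. Of the 76 members, 34 were highest in shTRIM21 replicate 1, 13 in replicate 2 and 18 in replicate 3, and 10 were highest in shControl replicate 3.

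**Figure D4:**
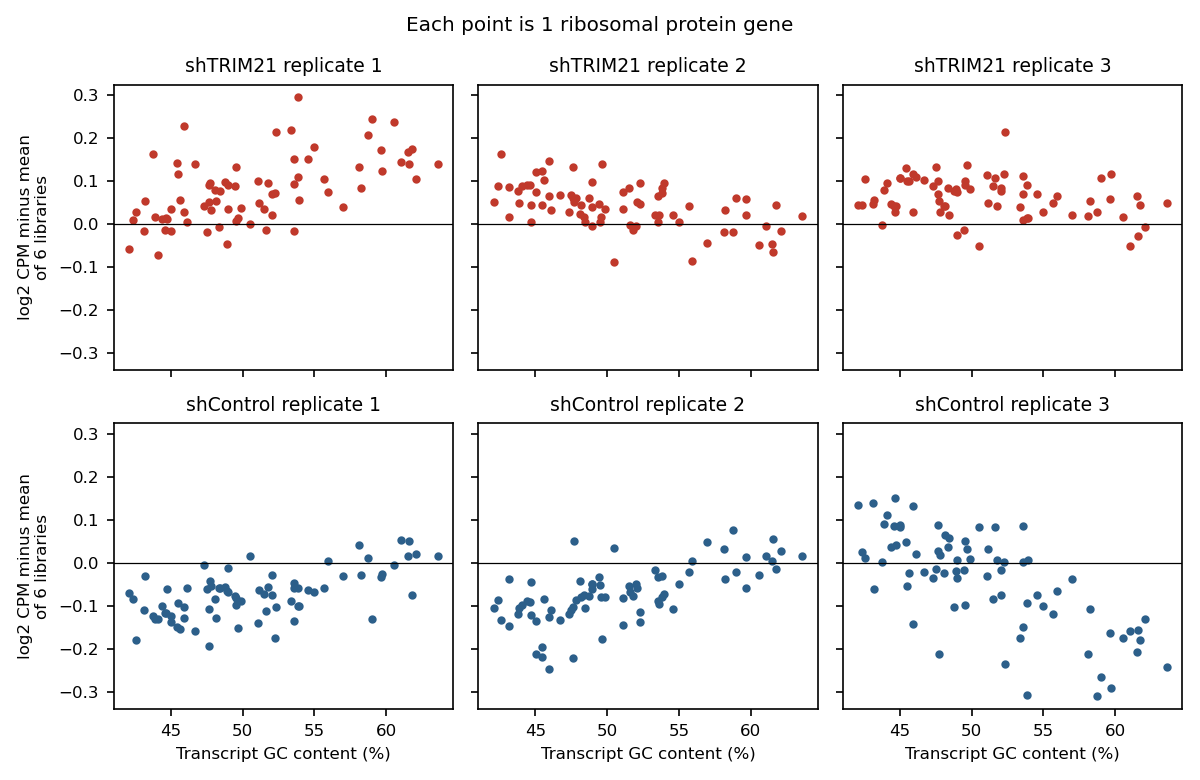
Log2 deviation of each ribosomal protein gene from its mean over 6 libraries (y axis) against the GC content of its transcript in percent (x axis), with a panel for each shTRIM21 library and, under it, each shControl library. Deviations lie mostly above 0 in shTRIM21 and below 0 in shControl replicates 1 and 2, and on both sides of 0 in shControl replicate 3. Over all tested members, RPL21 included, the medians in shControl replicates 1 to 3 were -0.07, -0.08 and -0.02. The slope differs between replicates of the same group, with r of 0.65 in shControl replicate 2 and -0.72 in shControl replicate 3.

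Over all genes, the log2 fold change was higher at higher GC content, with a median of -0.05 for transcripts under 45% GC and 0.09 for those at 55% and over. Over the members these medians were 0.08 for 13 genes and 0.13 for 17 genes. Between them stood 0.11 for 28 members at 45 to 50% GC and 0.15 for 18 members at 50 to 55%. Pearson's r of the log2 fold change with GC content was 0.09 over 76 members and 0.17 over all tested genes with a GC value. Members also have short transcripts, with a median of 704.5 bases against 2656 over all genes. When GC content and length were fitted as an offset in each library, the members' median log2 fold change was 0.04, against -0.00 over all genes. Across members, r with GC content was -0.44 under the offset, a downward trend that was not present without it. For the 17 members at 55% GC and over, the median under the offset was -0.04, with 1 called higher and 3 lower. Under that offset 9 members were higher, against 6.75% of all genes, and 4 were lower, against 7.13% of all genes. The 4 lower were RPL15, RPL13 at -0.12, RPL29 at -0.13 and RPS15 at -0.14, with edgeR adjusted p of 0.0489 for RPL13, 0.0404 for RPL29 and 0.0458 for RPS15. The 9 higher were the 5 named above with RPL4 at 0.19, RPS6 at 0.18, RPL37 at 0.17 and RPL27A at 0.13. RPL37 and RPL27A are annotated with transcripts of 7686 and 4916 bases, against the members' median of 704.5, and neither passed with the coding offset, where 7 members were higher, against 6.03% of all genes, and 1, RPL15, was lower, against 6.78%. The median there was again 0.04.

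**Figure D5:**
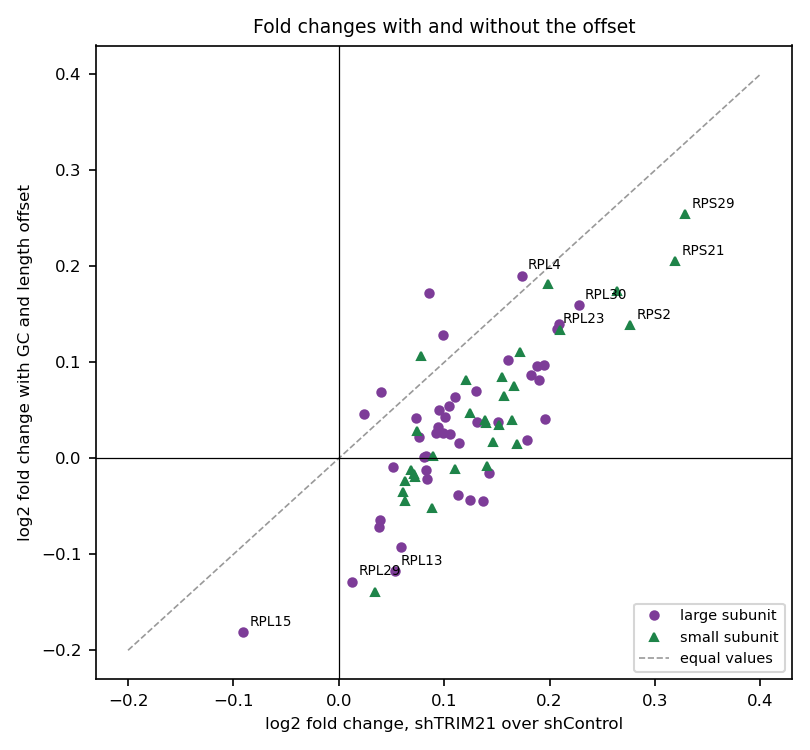
Log2 fold change, shTRIM21 over shControl, of each tested ribosomal protein gene without RPL21 as fitted without an offset (x axis) and with GC content and length as an offset (y axis), by subunit, with the dashed line where both are equal. Most points lie below that line, with a median over 76 genes of 0.11 without the offset and 0.04 with it, and points under 0 on the y axis include RPL13, RPL15 and RPL29.

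Levels across members were compared per length of the coding sequence, in CPM per kilobase averaged over the 6 libraries. Without RPL21 they ran from 264 for RPS29 to 13024 for RPL41, whose coding sequence is only 75 bases long. After RPL41 came RPL7 at 2644, RPS18 at 2458 and RPS24 at 2076 CPM per kilobase. At the low end, RPS28 stood at 320, RPS21 at 308 and RPS29 at 264 CPM per kilobase, so 3 of the 4 genes with the largest fold changes were among the lowest levels and among the shortest coding sequences. The median was 1063 for the large subunit without RPL21 and 784 for the small subunit. Per kilobase of transcript, RPL41 (2083), RPS18 (1828), RPL7 (1787) and RPL6 (1473) were highest, and RPL37A, RPS28, RPL37 and RPL21 lowest, between 79.0 and 6.13. RPL37 and RPL37A are annotated with long transcripts of 7686 and 3647 bases. Per kilobase of coding sequence they stood at 1137 and 1043 CPM, near the members' median of 986 without RPL21.

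A pair of rows stood outside the range of the rest. RPL7A, a large-subunit protein encoded on chromosome 9 at 133348214 to 133351426 (plus strand), was listed at 0 in all 6 libraries, although snoRNAs within its span were counted. SNORD36A had 37.5, 37.5 and 35.8 CPM in shTRIM21, against 34.6, 37.2 and 35.7 CPM in shControl. A 0 in these counts is therefore not read as absence of the mRNA. RPL21, on chromosome 13 at 27251309 to 27256691 (plus strand), had 83, 89 and 97 counts in shTRIM21, against 84, 60 and 162 in shControl. The shControl values bracket those of shTRIM21, and the log2 fold change of -0.09 had an SE of 0.295. SNORA27, a snoRNA inside RPL21, stood at 1938 CPM per kilobase against 6.13 CPM per kilobase for the RPL21 transcript. Ribosomal protein genes have many processed pseudogenes, and how reads with several positions were counted was not given in the sources, so the levels of all members are uncertain to that extent. Rows of annotated readthrough genes overlap members: RPS10-NUDT3 had 8210 counts in shTRIM21 replicate 1 and 7191 in shControl replicate 1, and RPS10 had 8297 and 6946 in the same libraries. RPL17-C18orf32 overlaps RPL17, with 15119 counts in shTRIM21 replicate 1 against 18196 for RPL17. RPL36A-HNRNPH2 overlaps RPL36A but held more counts. It had 7976 in shTRIM21 replicate 1 and 6970 in shControl replicate 1, against 4384 and 3433 for RPL36A. Its log2 fold change was 0.08 (edgeR adjusted p = 0.498), against 0.21 for RPL36A (edgeR adjusted p = 0.0821).

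The first bases of the members' transcripts are shown because the TOP tract is the feature that marks this gene family. Start sites came from RefSeq (GRCh38.p14), which held a start for 62 members. A tract was counted where the first base is C and at least the next 4 bases are C or T, on the gene's strand and at that position only. It was found in 46 of 62 members (74.2%), 28 of 38 in the large and 18 of 24 in the small subunit, against 5.14% of 27305 genes. In each line 10 bases before the start and the first 20 transcribed bases are given, with the tract in capitals.
RPS21, chr20:62387093-62387122, plus strand: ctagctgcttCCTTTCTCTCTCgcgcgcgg
RPS24, chr10:78033853-78033882, plus strand: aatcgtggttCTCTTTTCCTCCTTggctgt
RPS6, chr9:19380217-19380246, minus strand: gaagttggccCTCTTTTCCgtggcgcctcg
RPL12, chr9:127451387-127451416, minus strand: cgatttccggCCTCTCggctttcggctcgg
RPL7A, chr9:133348208-133348237, plus strand: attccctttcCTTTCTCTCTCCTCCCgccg
RPL21, chr13:27251548-27251577, plus strand: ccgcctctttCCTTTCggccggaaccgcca
RPS29, chr14:49598691-49598720, minus strand: agcgcgcagctggcagcggtggttgtttct
RPS28, chr19:8321486-8321515, plus strand: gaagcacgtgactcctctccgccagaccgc
RPL15, chr3:23917122-23917151, plus strand: aaggcattgtgggagtacagctctttcctt

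RPS21, RPS24 and RPS6 open with tracts of 12, 14 and 9 bases, while RPS29, RPS28 and RPL15, the last with other annotated starts that also lack one, do not open with a tract at the annotated start. RPL7A and RPL21, the rows at 0 or near it, have tracts of 16 and 6 bases. Across members with a tract its length ran from 5 to 19 bases with a median of 8. Within 20 bases on either side of the start, such a run was present in 96.8% of members and 56.0% of all genes. The median log2 fold change was 0.11 over 45 tested members with a tract at the annotated start and 0.10 over 16 without, and 1 member of each set rose. RPS2, RPL30 and RPL23, which also rose, had no start here and are in neither set. Because 60 of 62 members had such a run within 20 bases, the split depends on the exact annotated position. It cannot separate members with a TOP tract from members without.

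The companions of the ribosomal proteins were counted by lists, which are read against the 4.43% of all tested genes that edgeR called higher and the 4.66% it called lower. Counts at an unadjusted p under 0.05 are read against 11.5% of all tested genes higher and 1581 of 14002 lower at that threshold. Among ribosomal proteins listed under other symbols, FAU, made as a fusion with a ubiquitin-like protein, stood at a log2 fold change of 0.20 (edgeR adjusted p = 0.103), and RACK1, a scaffold on the small subunit, at 0.12 (edgeR adjusted p = 0.291). Of 12 rows of paralogs, 5 were at 0 and 7 were tested. The edgeR test called 0 of them higher (1 at an unadjusted p under 0.05, 1 by DESeq2 and 0 by limma-voom) and 1 lower. RPL7L1, a paralog of RPL7 that acts in pre-ribosome assembly, had 316, 320 and 311 CPM in shTRIM21, against 456, 441 and 470 CPM in shControl. The groups were far apart relative to their spread, at a log2 fold change of -0.53 (SE 0.0586, edgeR adjusted p = 9.18e-06), and RPL7 itself stood at 0.07 with overlapping groups. RPL26L1 stood at 0.30 (edgeR adjusted p = 0.0626). Of 16 tested rows of ribosomal protein pseudogenes, 0 passed in either direction by edgeR, DESeq2 or limma-voom, 1 was higher and 2 lower at an unadjusted p under 0.05, and the median log2 fold change was 0.01.

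Chaperones and importers of ribosomal proteins had 0 of 19 tested genes higher and 4 lower by edgeR, and the same counts by DESeq2 and limma-voom. At an unadjusted p under 0.05, 2 were higher and 5 lower. A positive fold change was found in 5, and the median log2 fold change was -0.12. DESeq2 called 6.24% and limma-voom 4.49% of all genes lower. The 4 that fell were the histone chaperone NAP1L1 at -0.37 and the nuclear import receptors IPO7 at -0.33, TNPO1 at -0.22 and KPNB1 at -0.21. IPO7 had 288, 302 and 302 CPM in shTRIM21, against 359, 355 and 403 CPM in shControl. Of 43 tested genes of RNA polymerase I and rRNA processing, 1 rose and 3 fell. NOP10, a protein of H/ACA snoRNPs, stood at 0.35, while the processome subunit UTP20 was at -0.40, the polymerase I factor UBTF at -0.25 and the helicase DDX21 at -0.21. Of 41 tested factors of subunit assembly and export, 0 rose by edgeR and 2 fell, RPF2 at -0.27 and EBNA1BP2 at -0.24. At an unadjusted p under 0.05, 3 were higher and 6 lower, and DESeq2 called 1 higher and limma-voom 0. The medians of these last 2 lists were -0.06 and -0.03, and with the GC and length offset they were -0.04 and -0.00, while that of the chaperones and importers was -0.10. With that offset 6.75% of all tested genes were higher and 7.13% lower. Beside these shares, 1 was higher and 4 lower among the chaperones and importers. The counts were 2 and 5 in the list of polymerase I and rRNA processing, and 1 and 3 in that of assembly and export. No list was tested as a set.

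Other mRNAs known to begin with a TOP tract had 1 of 18 tested genes higher and 1 lower. VIM, the intermediate filament protein vimentin, had 10.5, 12.5 and 11.0 CPM in shTRIM21, against 5.73, 5.15 and 5.77 CPM in shControl, and a log2 fold change of 1.03. The lower one was NAP1L1, and the median over the list was 0.06. With the GC and length offset 4 were higher and 2 lower, where 6.75% of all genes were higher and 7.13% lower. Of 22 tested regulators of TOP mRNAs, 1 rose and 0 fell by edgeR, 4 were lower at an unadjusted p under 0.05, and DESeq2 called 3 lower and limma-voom 0. With the GC and length offset 2 were higher and 2 lower. The gene that rose was DDIT4, a stress-induced inhibitor of mTORC1, at 1.41 (SE 0.317, edgeR adjusted p = 0.00908), with 4.36, 6.02 and 4.37 CPM in shTRIM21, against 2.13, 2.41 and 1.03 CPM in shControl. Of 6 tested genes that link ribosomal proteins to p53, 1 rose, the cell cycle inhibitor CDKN1A at 0.47. It had 120, 114 and 115 CPM in shTRIM21, against 86.8, 86.5 and 79.5 CPM in shControl. Of 15 tested genes of ribosome rescue and hibernation, 1 rose, ANKZF1, which releases stalled nascent chains, at 0.54. In each of these last 2 lists edgeR, DESeq2 and limma-voom called 0 genes lower, and 1 was lower at an unadjusted p under 0.05.

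Within the spans of 28 members lay 58 rows of snoRNAs, of which 43 were tested. Of these 1 was higher and 1 lower, where 4.43% of all tested genes were higher and 4.66% lower, and the median log2 fold change was 0.12. SNORD32A, in RPL13A, stood at 0.38 (edgeR adjusted p = 0.0181), and SNORD14B, in RPS13, had at most 7 counts in any shTRIM21 library and 34, 14 and 18 in shControl. The median was 0.13 over 27 tested members that hold a snoRNA and 0.11 over 49 that hold none, with 3 and 2 members that rose. Reads from a snoRNA and from its host intron cannot be told apart in these counts.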

How the data were processed

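For each of the 6 libraries the authors deposited whole-number counts by gene symbol, not normalized. The submitters' processing notes name hg38, limma 3.52.2, edgeR 3.38.1 and TopHat2 2.1.1. Not given in the sources used here are the counting tool, the annotation, the strand setting and how multi-mapping reads were handled.

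All rows were fitted together with edgeR 4.0.16 (R 4.3.3), after filterByExpr, which kept 14002 genes, with TMM scaling and the quasi-likelihood test of shTRIM21 against shControl, adjusted by Benjamini-Hochberg. CPM uses the TMM-scaled library size. The SE is the size of the log2 fold change divided by the square root of F. Alternatives were other scalings and filters, DESeq2 1.42.0, limma-voom 3.58.1, the replicate number as a block, left-out libraries, and offsets per library, a spline with 5 degrees of freedom each for GC content and log length. Transcripts and coordinates came from GENCODE release 29, which gave GC content for 13191 tested genes, and start sites from RefSeq through Python 3.11.15. The script was tested on simulated data. Each SE and p-value reflects the spread between libraries as well as counting error.

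Members and lists were chosen with earlier results of these data known. Named with values were members past the threshold or with an adjusted p under 0.1, at 0, with the 4 highest and lowest fold changes or levels per length, or with groups that did not overlap, and up to 3 called genes of each list, plus any that went the other way. A few such genes are not reported here. Others named, such as RPL5, RPL11, KPNB1 or the snoRNA rows, were chosen after their values were seen.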

Additional observations from a re-analysis of the deposited data

How the results depend on the processing

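For the counts of members called and both medians, 49 of 76 values under an alternative stayed within 1.5 times the main count or within 1 SD between libraries, and 27 moved. Against 5 higher, 13 were called with upper-quartile scaling (5.14% of all genes), 13 with DESeq2 (5.18%), 10 with limma-voom (4.06%), 10 with no filter on low counts (4.07%), 18 without replicate 3 of both groups, 9 without genes of rRNA (4.25%) and 9 with the GC and length offset. Leaving out single libraries gave 0 to 27, with 27 without shControl replicate 3. Against 0 lower, 4 were called with the GC and length offset and 1 with the coding offset. The median log2 fold change was 0.036 with the GC and length offset, 0.040 with the coding offset and 0.14 without replicate 3 of both groups, and ran from 0.10 to 0.14 with single libraries left out. The large minus small difference was -0.0037 with the GC and length offset and ran from -0.062 to -0.0092 with single libraries left out. The cause was not tested.

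The direction of RPL22 turned to -0.028 with the coding offset, and single libraries left out moved it between -0.023 and 0.11. RPL29 turned to -0.13 with the GC and length offset, -0.088 with the coding offset and -0.00074 without replicate 3 of both groups, and single libraries left out moved it between -0.0044 and 0.040. RPL21, with few reads, turned to 0.31 without replicate 3 of both groups, and single libraries left out moved it between -0.33 and 0.32.

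The labels do not say whether the replicate numbers pair the samples. Same-numbered libraries deviated together with r of 0.10, -0.01 and 0.09 over all genes, for replicates 1 to 3. Over the members these were 0.72, -0.66 and 0.44, and r between libraries of different number ran from -0.77 to 0.73. Deviations were centred within each group of 3, so these r cannot settle the pairing. With the replicate block 11 members were higher (5.88% of all genes) and 0 lower, at a median of 0.11. With the block and the GC and length offset 10 were higher (7.23%) and 3 lower (7.73%), at a median of 0.036 and a large minus small difference of -0.0022. Low counts limit RPL21 and the snoRNA rows, and 3 libraries a group limit calls near the threshold.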
